A study of Danio rerio with 3 samples.

Results

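In zebrafish hearts collected 3 days after injury, most captured cells belonged to 2 of the study's numbered cell clusters, cluster 3 and cluster 6. The members are the 60 day 3 cells that the deposited metadata place in cluster 3 and the 34 that it places in cluster 6, at the finer of its clusterings. They make up 94 of the 754 cells of the series and 94 of the 114 cells of the day 3 library. The fish were adult zebrafish, about 5 to 12 months old, of strain AB. They had swum in 5 mM metronidazole with 0.1% DMSO for 48 hours, which kills cells that carry a bacterial nitroreductase. The labels list a line with that enzyme under the vmhc promoter (vmhc:mCherry-NTR), but do not say which line gave these libraries. Hearts of 3 males and 3 females were digested in 2 sets of 3 and pooled, and 2600 cells were loaded on the 10x Chromium droplet chip. Cluster 3 and cluster 6 cells share all of this: they come from the same pool of hearts, the same drug and the same library. The labels do not assign single cells to a heart, a digestion set or a sex. The day 0 and day 7 libraries serve as context. Their labels give no metronidazole or DMSO for day 0, and the same 48 hours in 5 mM metronidazole with 0.1% DMSO for day 7. Each of these libraries also pooled hearts of 3 males and 3 females, of the same age range.

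Both clusters are called endothelial-like here, meaning like the cells that line the heart chambers and vessels, the endocardium and endothelium. In the injured zebrafish heart this lining signals to the muscle and to the epicardium with secreted factors, retinoic acid and Notch ligands. Notch signalling in the lining is read out by the her and hey repressor genes, and shear stress from flowing blood by klf2a. Natriuretic peptides, leptin b and vasoactive peptides are among the factors that zebrafish hearts make after injury.

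Cluster 3 held 206548 UMIs (unique molecular identifiers, tags that each mark 1 captured transcript) and cluster 6 held 182730. A cell had 2004 to 9824 UMIs in cluster 3 (median 2880.5) and 2084 to 19189 in cluster 6 (median 4408). Above 10000 UMIs there were 0 cluster 3 cells and 5 cluster 6 cells. Thinned to 2000 UMIs each, the cells showed nearly equal numbers of genes, with a median of 511 in cluster 3 and 517.5 in cluster 6. The median share of mitochondrial-encoded transcripts was 0.768% in cluster 3 cells and 0.641% in cluster 6 cells. The labels state 141 recovered cells for this library, against the 114 in the table. No doublet caller was run, and 1 cell barcode was shared with another library.

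With 1 library there are no replicates, and the clusters were drawn from the same genes, so all differences are descriptions without a test. Levels are CPM, summed UMIs of a cluster scaled to counts per 1000000. Intervals are exact Poisson intervals at 95% for levels, exact binomial ones for ratios and shares, and cover counting error only. Log2 ratios are cluster 3 over cluster 6 after adding 10 CPM to both, so they understate the ratio of low genes, and 2-fold means a log2 ratio of at least 1 in size.

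Of 1258 genes with at least 20 UMIs in both clusters together, 294 (23.4%) were 2-fold higher in cluster 3 and 232 (18.4%) were 2-fold lower. The median log2 ratio of all 1258 genes was 0.13. Part of these ratios rested on single cells. In 132 genes, 1 cell held over 50% of the UMIs, and 127 of these genes were past 2-fold. In these 132 genes the richest cell held 12 to 377 UMIs (median 118.5), and 71 different cells were the richest in at least 1 of them. Without the cell richest in each gene, 194 of the 294 higher and 155 of the 232 lower genes stayed past 2-fold in the same direction, and 51 of the 526 changed sign. Ratios without the richest cell are therefore given beside part of the named genes. A named gene without such a ratio, such as rbp4, krt15, aqp8a.1 or txn, may still rest in part on 1 cell.

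The 5 genes named as markers of the pair comprised 2 that were higher and 3 that were lower in cluster 3. nppb encodes natriuretic peptide B, a hormone of stressed heart tissue. A cluster 3 cell held 0 to 271 nppb UMIs (median 6) and a cluster 6 cell 0 to 4 (median 1). In sum nppb stood at 4135 CPM in cluster 3 (interval 3862 to 4422) and 148 CPM in cluster 6 (97.4 to 215), a ratio of 28.0 (19.1 to 42.7). The groups overlapped, but 40 of 60 cluster 3 cells exceeded every cluster 6 cell in nppb CPM. Without the cell of 271 UMIs the log2 ratio was 4.18 in place of 4.72.

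lepb, one of the zebrafish leptin genes, is induced in the endocardium of regenerating hearts. It had 42 UMIs in 23 of 60 cluster 3 cells and 2 UMIs in 2 of 34 cluster 6 cells. No cell held more than 6 lepb UMIs in cluster 3 or more than 1 in cluster 6. Its level was 203 CPM in cluster 3 and 10.9 CPM in cluster 6, a ratio of 18.6 with a wide interval of 4.83 to 158. The ratio did not rest on 1 cell: its log2 value was 3.35 in all cells and 3.15 without the richest.

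The other markers went the other way. aplnra encodes a receptor for the peptides apelin and Elabela. It had 2 UMIs in cluster 3 and 284 in cluster 6, in 2 of 60 and 19 of 34 cells. Its ratio was 161-fold lower in cluster 3 (interval 44.0 to 1332), but 1 cluster 6 cell held 235 of the 284 UMIs, and without it the log2 ratio was -3.87 in place of -6.31. klf2a, the shear-responsive transcription factor, stood at 62.9 CPM in cluster 3 and 1686 CPM in cluster 6. A cluster 3 cell held 0 to 2 klf2a UMIs (median 0) and a cluster 6 cell 0 to 165 (median 3), and 24 of 34 cluster 6 cells exceeded every cluster 3 cell. vwf encodes von Willebrand factor, the clotting protein that endothelial cells store. It stood at 111 CPM in cluster 3 and 3114 CPM in cluster 6. A vwf UMI was found in 25.0% of cluster 3 cells and 94.1% of cluster 6 cells, and 1 cluster 6 cell held 377 of the 569 UMIs. For vwf 11 of 34 cluster 6 cells exceeded every cluster 3 cell, so these groups overlapped more than for klf2a. Without their richest cells the log2 ratios were -3.49 for klf2a and -3.15 for vwf.

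**Figure D1:**
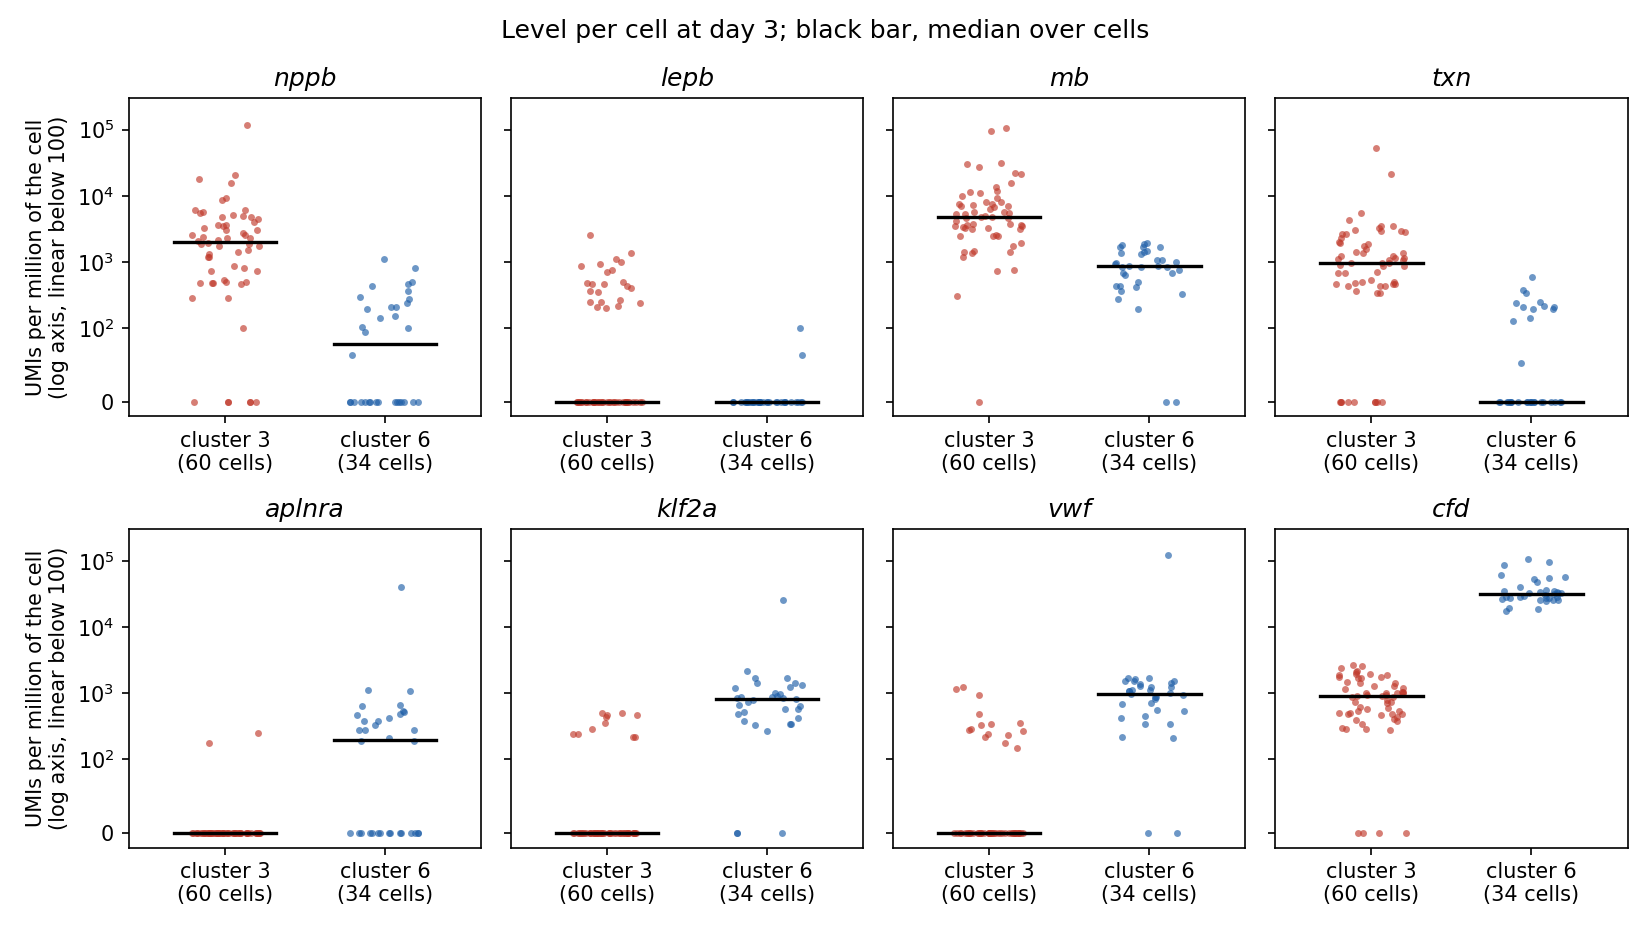
Level of 8 genes in each day 3 cell, as CPM of that cell on a log axis that is linear below 100, for cluster 3 (60 cells) and cluster 6 (34 cells), with the median over cells as a black bar. nppb, lepb, mb and txn were higher in cluster 3, aplnra, klf2a, vwf and cfd were lower, and for cfd the 2 clouds do not overlap.

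Shares of cells with a UMI depend on depth, which was greater in cluster 6. With every cell thinned to 2000 UMIs, nppb was found in 88.3% of cluster 3 and 32.4% of cluster 6 cells, lepb in 31.7% and 0%, aplnra in 0% and 38.2%, klf2a in 16.7% and 79.4%, and vwf in 9 of 60 and 27 of 34 cells. Free RNA in droplets can give UMIs in cells that do not express a gene. The day 3 library held no cluster of a type that should lack these genes, so its own background could not be measured. In cluster 1 of the day 0 library, which carries smooth muscle and pericyte markers (88 cells, median 2950.5 UMIs), nppb was found in 1.14%, lepb in 0%, aplnra in 1.14%, klf2a in 14.8% and vwf in 6.82% of cells. The endothelial-like cells of that library held little nppb, lepb or aplnra themselves, so these low shares give no background for day 3. In cluster 1 of day 7 (61 cells, median 2770 UMIs) klf2a was found in 23.0% of cells, and the 18.3% of cluster 3 cells with a klf2a UMI are not read as expression.

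The lining identity was checked against 38 endothelial genes, of which 35 were in the table and 16 were measured. The summed level of those in the table was 4222 CPM in cluster 3 and 5801 CPM in cluster 6, against 8271 CPM in the endothelial-like clusters 0, 2, 3 and 6 of day 0 and 509 CPM in its cluster 1. These sums leaned on 1 gene each: aqp8a.1 gave 542 of 872 UMIs in cluster 3 and vwf 569 of 1060 in cluster 6. At least 1 UMI of 8 core genes (kdrl, cdh5, pecam1, tie1, egfl7, clec14a, erg and vwf) was found in 42 of 60 cluster 3 cells and in 34 of 34 cluster 6 cells, against 154 of 166 cells of the day 0 endothelial-like clusters and 25 of 88 cells of cluster 1 at day 0. The share in cluster 3, 70.0%, lay between these. Cells were not thinned for these shares, and their median UMIs were 2880.5, 4408, 2587 and 2950.5 in the order given. The 8 genes include the pair marker vwf, which alone had a UMI in 32 of 34 cluster 6 cells. The share in cluster 6 is therefore no separate check of its identity. Of the 16 measured genes, 3 were 2-fold higher and 7 were 2-fold lower in cluster 3 (23.4% and 18.4% of all genes). aqp8a.1, a water channel of the endocardium, stood at 2624 CPM in cluster 3 and 115 CPM in cluster 6, a ratio of 22.8 (14.8 to 37.2), with 316 of its 542 cluster 3 UMIs in 1 cell. fabp11a, a fatty acid carrier of the endocardium, stood at 11111 CPM in cluster 3 and 1675 CPM in cluster 6, with a median of 24 UMIs per cell in cluster 3 and 6.5 in cluster 6. Among the endothelial genes, ecscr was also 2-fold higher, with 19 UMIs in 15 cluster 3 cells and 1 UMI in cluster 6. ramp2 was 2-fold higher too, at 208 CPM in cluster 3 and 93.0 CPM in cluster 6, but short of 2-fold without its richest cell. fli1a stood at 121 CPM in cluster 3 and 82.1 CPM in cluster 6. The blood and vessel transcription factor lmo2 (24.2 CPM in cluster 3 and 290 CPM in cluster 6) and the endothelial factor sox7 (145 and 432 CPM) were lower in cluster 3. esm1, a secreted proteoglycan gene of sprouting endothelium, had 0 UMIs in cluster 3 and 21 in 13 cells of cluster 6, at least 7.91-fold lower against a floor of 3 counts over the cluster. The endocardial gene spock3 was at 1215 CPM in cluster 3 and 7049 CPM in cluster 6. The 6 measured endocardial markers therefore split, with 2 of them 2-fold higher and 2 lower in cluster 3 (23.4% and 18.4% of all genes). pecam1, an endothelial adhesion gene, stood at 14.5 CPM in cluster 3 and 126 CPM in cluster 6, in 3 of 60 and 16 of 34 cells. The core gene kdrl, at 48.4 CPM in cluster 3, was near the 39.9 and 51.9 CPM of cluster 1 at day 0 and day 7. It stood at 242 CPM in the day 0 endothelial-like clusters. cdh5 stood at 53.3 CPM in cluster 3, against 13.3 CPM in cluster 1 and 306 CPM in the endothelial-like clusters of day 0. egfl7 and clec14a stood at 121 and 179 CPM in cluster 3, against 23.3 and 6.65 CPM in cluster 1 of day 0. In cluster 6 kdrl, cdh5, egfl7 and clec14a stood at 153, 104, 246 and 290 CPM.

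Cluster 6 cells also carried low levels of contractile genes. The 4 measured markers of mural cells (smooth muscle and pericytes) were all 2-fold lower in cluster 3 (18.4% of all genes). acta2 stood at 131 CPM in cluster 3 and 887 CPM in cluster 6, tagln at 53.3 and 482 CPM, rgs5a at 43.6 and 268 CPM, and myl9a at 324 and 903 CPM. Summed over all 18 mural markers in the table, a cell had 0 to 2070 CPM in cluster 3 (median 437) and 1372 to 6679 CPM in cluster 6 (median 2667). Every cluster 6 cell had some, yet the cluster's sum of 2709 CPM was far under the 16805 CPM of cluster 1 at day 0 and the 21532 CPM of cluster 1 at day 7. The day 3 library held 0 cells of cluster 1. Among the markers below the minimum, lmod1b had 1 UMI in cluster 3 and 15 UMIs in 11 cells of cluster 6, mylka had 1 and 8, and myh11a had 2 and 4. notch3, cspg4, cnn1b, kcnj8, ndufa4l2a, tbx18 and mcama had 0 UMIs in both clusters. The part of mural RNA or of doublets in the values of cluster 6 was not tested.

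The 15 highest ratios, among genes found in at least 20% of cluster 3 cells and past 2-fold without their richest cell, came from 177 genes that met these conditions. They were psma2, nppb, marcksl1b, txn, aqp8a.1, dusp5, tuba8l, prelid1a, il34, rgcc, C8H11orf31, tmem88b, si:ch211-154o6.6, arhgdia and cox6a2. txn encodes thioredoxin, a small protein that keeps thiols reduced. A cluster 3 cell held 0 to 248 txn UMIs (median 3) and a cluster 6 cell 0 to 4 (median 0). In sum txn stood at 2876 CPM in cluster 3 and 104 CPM in cluster 6, a ratio of 27.7 (17.6 to 46.3), and 38 of 60 cluster 3 cells exceeded every cluster 6 cell.

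Several of these high ratios changed little without the richest cell. il34, a cytokine that acts on the receptor of macrophage growth and survival, had 59 UMIs in 22 cluster 3 cells and 2 UMIs in 2 cluster 6 cells (log2 ratio 3.82, or 3.50 without the richest cell). tmem88b, a gene for an inhibitor of Wnt signalling, was found in 68.3% of cluster 3 cells and 20.6% of cluster 6 cells, at 697 and 49.3 CPM. si:ch211-154o6.6, which has no descriptive name here, stood at 1249 CPM in cluster 3 and 98.5 CPM in cluster 6, and no cell held more than 27 of its UMIs. rgcc, a regulator of the cell cycle, had 27 UMIs in 18 cluster 3 cells and 0 in cluster 6, which makes it at least 7.96-fold higher. In contrast, prelid1a, a mitochondrial lipid transfer gene, had 113 of its 129 cluster 3 UMIs in 1 cell, and its log2 ratio was 3.89 in all cells and 1.07 without that cell. marcksl1b, dusp5 and arhgdia also lost over 1.5 units, with 2.36, 2.29 and 1.81 left.

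The 15 lowest ratios came from 149 genes that met the same conditions for cluster 6. They were aplnra, her4.2, arl5c, cfd, lmo4a, rbp4, mdkb, vwf, ncoa5, her4.2.1, krt15, her4.4, cxcl14, klf2a and her4.1. cfd encodes complement factor D, the protease that starts the alternative complement pathway. A cluster 3 cell held 0 to 9 cfd UMIs (median 3) and a cluster 6 cell 44 to 1104 (median 133.5). In CPM the highest cluster 3 cell had 2639 and the lowest cluster 6 cell 17615, so the groups did not overlap at all. Summed, cfd stood at 944 CPM in cluster 3 and 40311 CPM in cluster 6, 42.7-fold lower in cluster 3 (37.0 to 49.5).

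The other genes of the 15 lowest had varied roles. rbp4, the carrier of retinol, stood at 160 CPM in cluster 3 and 4564 CPM in cluster 6, and 31 of 34 cluster 6 cells exceeded every cluster 3 cell. mdkb, a midkine growth factor gene, had 1 UMI in cluster 3 and 71 UMIs in 24 cells of cluster 6, a ratio of 80.3 with an interval of 13.9 to 3214. The chemokine gene cxcl14 had 0 UMIs in cluster 3 and 43 UMIs in 24 cells of cluster 6, at least 16.2-fold lower in cluster 3. krt15, a keratin gene, stood at 237 CPM in cluster 3 and 6211 CPM in cluster 6, and it had a UMI in all 34 cluster 6 cells. For arl5c, lmo4a and ncoa5 single cluster 6 cells held 245, 250 and 38 UMIs. This left 47, 18 and 7 UMIs of these genes in the other cluster 6 cells, against 5, 8 and 0 UMIs in cluster 3.

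**Figure D2:**
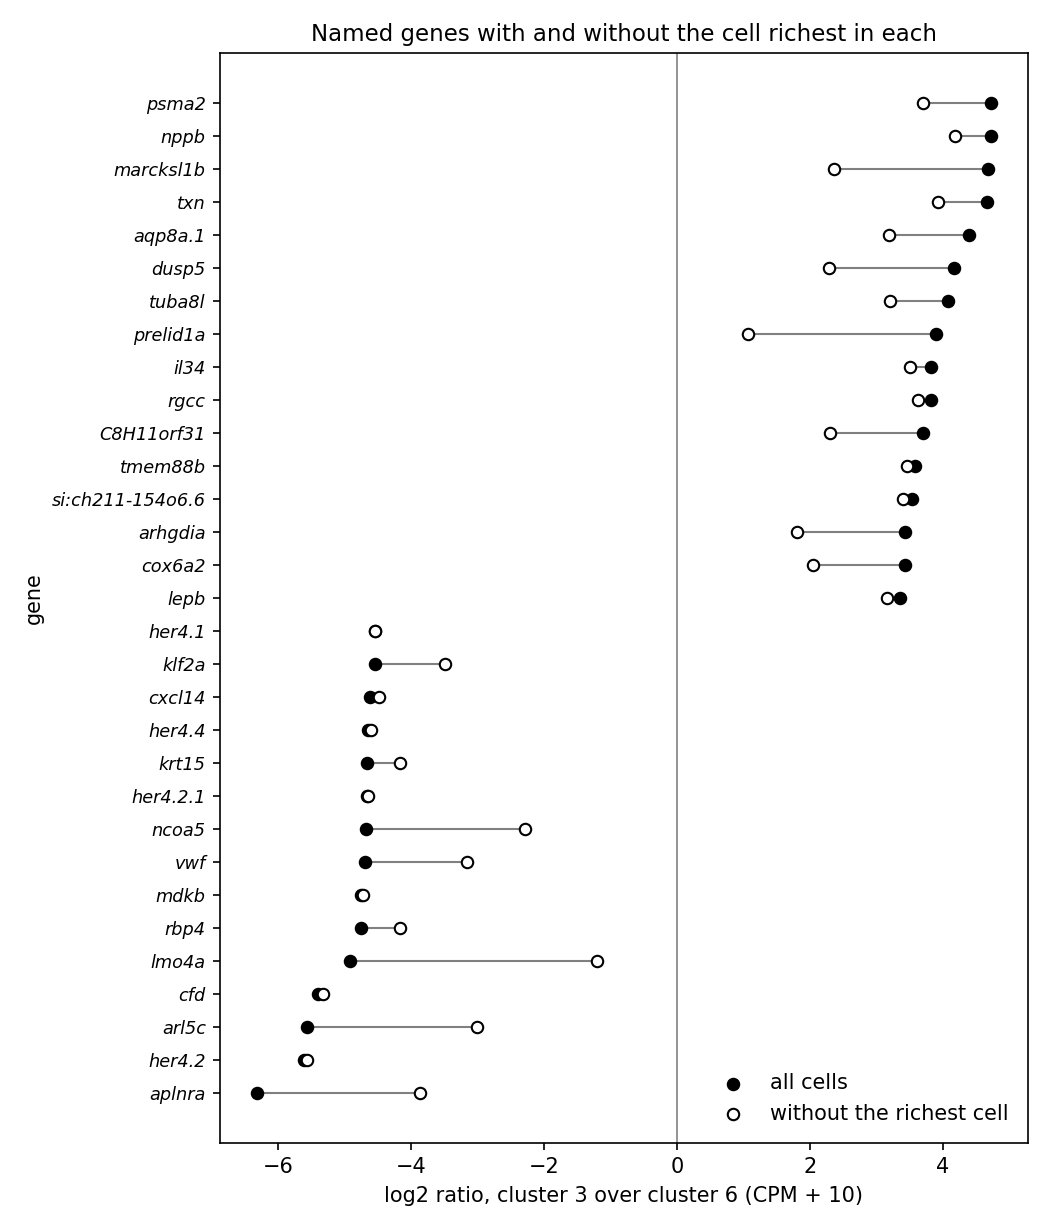
Log2 ratio of cluster 3 over cluster 6 for the 15 highest and 15 lowest genes and lepb, with all cells (filled points) and without the cell richest in each gene (open points). The open points of her4.1, her4.2, her4.2.1, her4.4, cfd, mdkb and cxcl14 lie on or beside the filled ones, while those of lmo4a, arl5c, ncoa5, aplnra, prelid1a and marcksl1b lie over 2 units nearer to 0.

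The Notch-responsive her4 genes were found in every cluster 6 cell and in few cluster 3 cells. The 5 her4 rows of the table (her4.1, her4.2, a second row of that symbol called her4.2.1 here, her4.3 and her4.4) are near-identical copies, so reads may be split among them and their UMIs were summed. In sum they had 41 UMIs in cluster 3, in 12 of 60 cells, and 1142 in cluster 6, in 34 of 34 cells. A cluster 3 cell held 0 to 19 her4 UMIs (median 0) and a cluster 6 cell 7 to 71 (median 27). The summed level was 199 CPM in cluster 3 (142 to 269) and 6250 CPM in cluster 6 (5892 to 6623). The groups overlapped: the richest cluster 3 cell spent 0.652% of its UMIs on her4 genes, within the 0.312 to 1.22% of cluster 6 cells. The ratios did not rest on 1 cell, since the log2 ratios of the 5 rows lay between -5.60 and -3.43 in all cells and between -5.57 and -3.37 without the richest cell.

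Of 33 Notch pathway genes 5 were measured: 4 her4 rows, 2-fold lower in cluster 3, and her6, a related repressor, which was 2-fold higher at 199 CPM in cluster 3 and 43.8 CPM in cluster 6. The background is 23.4% of genes 2-fold higher and 18.4% lower. The receptors and ligands were too sparse to compare. notch1b had 5 UMIs in cluster 3 and 3 in cluster 6, notch1a 2 and 5, and the ligand gene dll4 3 and 2. hey2, another Notch target, had 2 UMIs in cluster 3 and 16 UMIs in 11 cells of cluster 6.

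Most cluster 3 cells held nppb, so few could hold her4 or lepb without it. After thinning to 2000 UMIs, 44 of 60 cluster 3 cells had nppb without her4, 9 had both, 0 had her4 alone and 7 had neither. In cluster 6, 11 of 34 cells had both and 23 had her4 alone. The 19 cluster 3 cells with lepb all had nppb, as did 53 of all 60 cells, so no association is read from these counts.

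**Figure D3:**
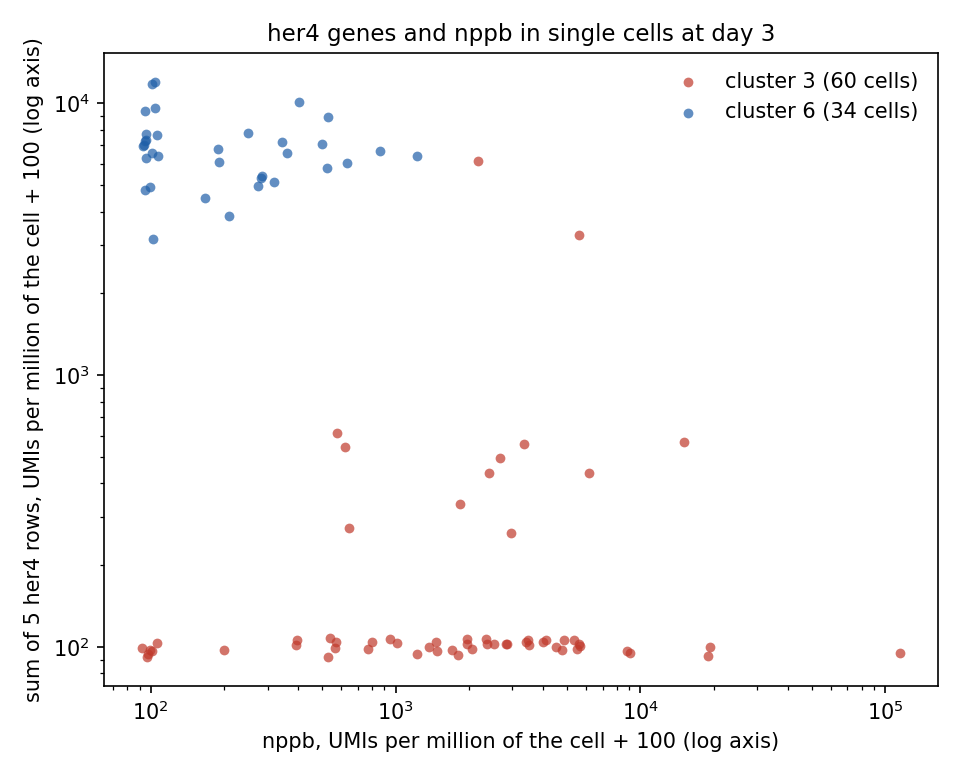
Sum of the 5 her4 rows against nppb in each day 3 cell, as CPM of the cell plus 100 on log axes, with small random shifts so that points do not hide each other. All 34 cluster 6 cells lie high on the her4 axis, and most of the 60 cluster 3 cells lie along its bottom, with 12 of them above 0 and 2 of these near the cluster 6 cells.

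Genes of the response to blood flow split both ways, with 3 of 8 measured genes 2-fold higher and 4 of 8 lower in cluster 3 (23.4% and 18.4% of all genes). The endothelin genes edn1 and edn2, which encode vasoconstrictor peptides, were higher in cluster 3, edn1 at 533 and 87.6 CPM and edn2 at 242 and 27.4 CPM. The lower genes were klf2a, klf6a, efnb2a and errfi1. efnb2a, the arterial ephrin B2 gene, had 0 UMIs in cluster 3 and 21 UMIs in 14 cells of cluster 6. errfi1, an inhibitor of EGF receptor signalling, had 143 of its 169 cluster 6 UMIs in 1 cell. klf6a stood at 33.9 CPM in cluster 3 and 142 CPM in cluster 6. The list median was -0.65 but above 0 under 4 of 11 alternatives (0.88 without cells over 10000 UMIs), so the list has no stable direction.

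Of 72 listed secreted ligands and cytokines 12 were measured, and 7 of these were 2-fold higher and 3 lower in cluster 3 (23.4% and 18.4% of all genes). Beside lepb, il34 and edn1, the higher ones were mdka, mif, grn1 and grn2. For mif, 1 cell held 71 of the 131 cluster 3 UMIs, and its log2 ratio was 2.81 in all cells and 1.72 without that cell. mdka, the other midkine gene, was higher at 242 CPM in cluster 3 and 65.7 CPM in cluster 6, opposite to mdkb. The ratios of the granulin genes grn1 and grn2 rested largely on 1 cluster 3 cell each, and their log2 values of 3.01 and 3.21 were 1.16 and 0.24 without it. The lower ones were mdkb, cxcl12a, the chemokine that guides CXCR4 cells (19.4 CPM in cluster 3 and 131 CPM in cluster 6), and the matricellular gene cyr61 (136 and 372 CPM). The leptin receptor gene lepr had 1 UMI in each cluster. Of its downstream genes, socs3a stood at 305 CPM in cluster 3 and 334 CPM in cluster 6, and socs3b at 126 and 252 CPM, neither past 2-fold.

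In the BMP and TGF-beta list the 4 of 8 measured genes that were 2-fold lower in cluster 3 (18.4% of all genes) were id1, id3, id2a and smad6a, which BMP signalling is known to induce. id1 stood at 290 CPM in cluster 3 and 908 CPM in cluster 6, with a median of 0 UMIs per cell in cluster 3 and 3.5 in cluster 6. id3 stood at 140 and 602 CPM, and id2a at 77.5 and 372 CPM. id2b went the other way, at 3191 CPM in cluster 3 and 2266 CPM in cluster 6, short of 2-fold. The list median was -0.74, and 0.57 with no minimum count.

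Of 24 retinoid genes 4 were measured, 3 of them 2-fold higher and 1, the carrier rbp4, lower in cluster 3 (23.4% and 18.4% of all genes). aldh1a2, the enzyme that makes retinoic acid, stood at 455 CPM in cluster 3 and 219 CPM in cluster 6 and was found in 39 of 60 cluster 3 and 14 of 34 cluster 6 cells, a log2 ratio of 1.02 that fell short of 2-fold under median-of-ratios scaling. rdh10a, the enzyme of the step before it, had 43 UMIs in 21 cluster 3 cells and 3 in 2 cluster 6 cells (ratio 12.7, 4.06 to 63.9), while its copy rdh10b had 4 and 7 UMIs. cyp26b1, which degrades retinoic acid, had 58 UMIs in cluster 3 and 0 in cluster 6, but 51 of the 58 came from 1 cell.

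Proteasome genes were higher in cluster 3 nearly throughout. Of 25 measured genes 24 had a log2 ratio above 0, against 54.9% of all measured genes. 16 of the 25 (23.4% of all genes) were 2-fold higher and 1 (18.4% of all) was lower. Their median log2 ratio was 1.11, against 0.13 over all measured genes. The exception, psma6a (48.4 CPM in cluster 3 and 126 CPM in cluster 6), rested on 1 cell, and without the richest cells all 25 genes lay above 0, 13 of them past 2-fold. A cell spent 0.0796 to 8.24% of its UMIs on proteasome genes in cluster 3 (median 0.498%) and 0.0426 to 1.09% in cluster 6 (median 0.222%). psma2, a subunit of the catalytic core, was at 2416 CPM in cluster 3 and 82.1 CPM in cluster 6. 2 cluster 3 cells held 258 and 198 of its 499 UMIs. psmd7, a subunit of the regulatory cap, had 24 UMIs in 20 cluster 3 cells and 1 UMI in cluster 6, a ratio of 21.2 with an interval of 3.46 to 873. psma6b (320 UMIs in cluster 3, 306 of them in 1 cell) and psma6a are close copies and may share reads.

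Other protein quality genes differed in both directions. Of 21 measured cytosolic chaperone genes 4 were 2-fold higher and 3 lower in cluster 3 (23.4% and 18.4% of all genes), with a median of 0.28 that became -0.01 after thinning. hspa8, the constitutive Hsp70 gene, stood at 1859 CPM in cluster 3 and 717 CPM in cluster 6. The inducible copies hsp70.1, hsp70.2 and hsp70.3, which may share reads, stood at 5437, 5776 and 4406 CPM in cluster 3 and 4613, 7328 and 2392 CPM in cluster 6. dnajb1b, their co-chaperone, was lower at 620 CPM in cluster 3 and 1647 CPM in cluster 6. In the list of the endoplasmic reticulum and unfolded protein response 1 of 16 genes was 2-fold higher, hsp90b1 at 107 and 21.9 CPM, and 5 were lower, with a median of -0.11 that became 0.04 without the richest cells. Of these, chac1 and ppp1r15a, both activated by ATF4, had log2 ratios of -2.81 and -2.86 in all cells and -1.05 and -0.61 without the richest cell. atf4b itself stood at 150 CPM in cluster 3 and 476 CPM in cluster 6. Of 18 ubiquitin and autophagy genes 2 were 2-fold higher and 5 lower, with a median of -0.65 in all cells and -0.08 without the richest.

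Genes of mitochondrial respiration were higher in cluster 3 than in cluster 6. Of 73 measured nuclear genes of oxidative phosphorylation 42 were 2-fold higher and 4 were lower (23.4% and 18.4% of all genes), with a median log2 ratio of 1.13. The 4 lower genes (uqcrb, atp5g1, atp5e and cox7c) each lay above 0 without their richest cell, and then 37 of 73 genes were 2-fold higher and 0 lower. A cell had 7202 to 127993 CPM of these genes in cluster 3 (median 20502) and 6149 to 44262 CPM in cluster 6 (median 9464). The list summed to 23089 CPM in cluster 3, near the 21748 and 23025 CPM of the endothelial-like clusters of day 0 and day 7. Its sum was 13824 CPM in cluster 6 and 13441 CPM in the day 3 cells of clusters 0 and 2. cox6a2, a subunit of cytochrome c oxidase, was at 1041 CPM in cluster 3 and 87.6 CPM in cluster 6, with 135 of its 215 cluster 3 UMIs in 1 cell. Some genes rested on 1 cell: ndufa4 had 220 UMIs in cluster 3 and 2 in cluster 6, and 215 of them lay in 1 cell. Many of these genes have close copies among which reads may be split.

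Of the 10 measured mitochondrial-encoded transcripts 8 lay above 0 and 3 were 2-fold higher (54.9% and 23.4% of all genes). Their median was 0.77. Glycolysis and hypoxia genes had 6 of 15 members 2-fold higher and 0 lower (23.4% and 18.4% of all genes), among them eno1a (257 CPM in cluster 3 and 76.6 CPM in cluster 6), tpi1b (218 and 49.3 CPM) and the abundant gapdhs (1917 and 733 CPM). mb encodes myoglobin, an oxygen store of muscle that fish also express in other tissues. It stood at 8492 CPM in cluster 3 and 854 CPM in cluster 6, a ratio of 9.95 (8.44 to 11.8), and 49 of 60 cluster 3 cells exceeded every cluster 6 cell. The muscle genes differed less: myl7 stood at 634 and 553 CPM and cmlc1 at 407 and 274 CPM, while myh6 and vmhc had 0 UMIs in both clusters. The summed level of cardiomyocyte markers was 9775 CPM in cluster 3 and 1883 CPM in cluster 6, most of it mb, against 158388 CPM in the muscle cells of cluster 5 at day 0. mb itself stood at 28362 CPM in the endothelial-like clusters 0, 2, 3 and 6 of day 0, above the 8492 CPM of day 3 cluster 3. The part of muscle RNA in these values was not tested.

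**Figure D4:**
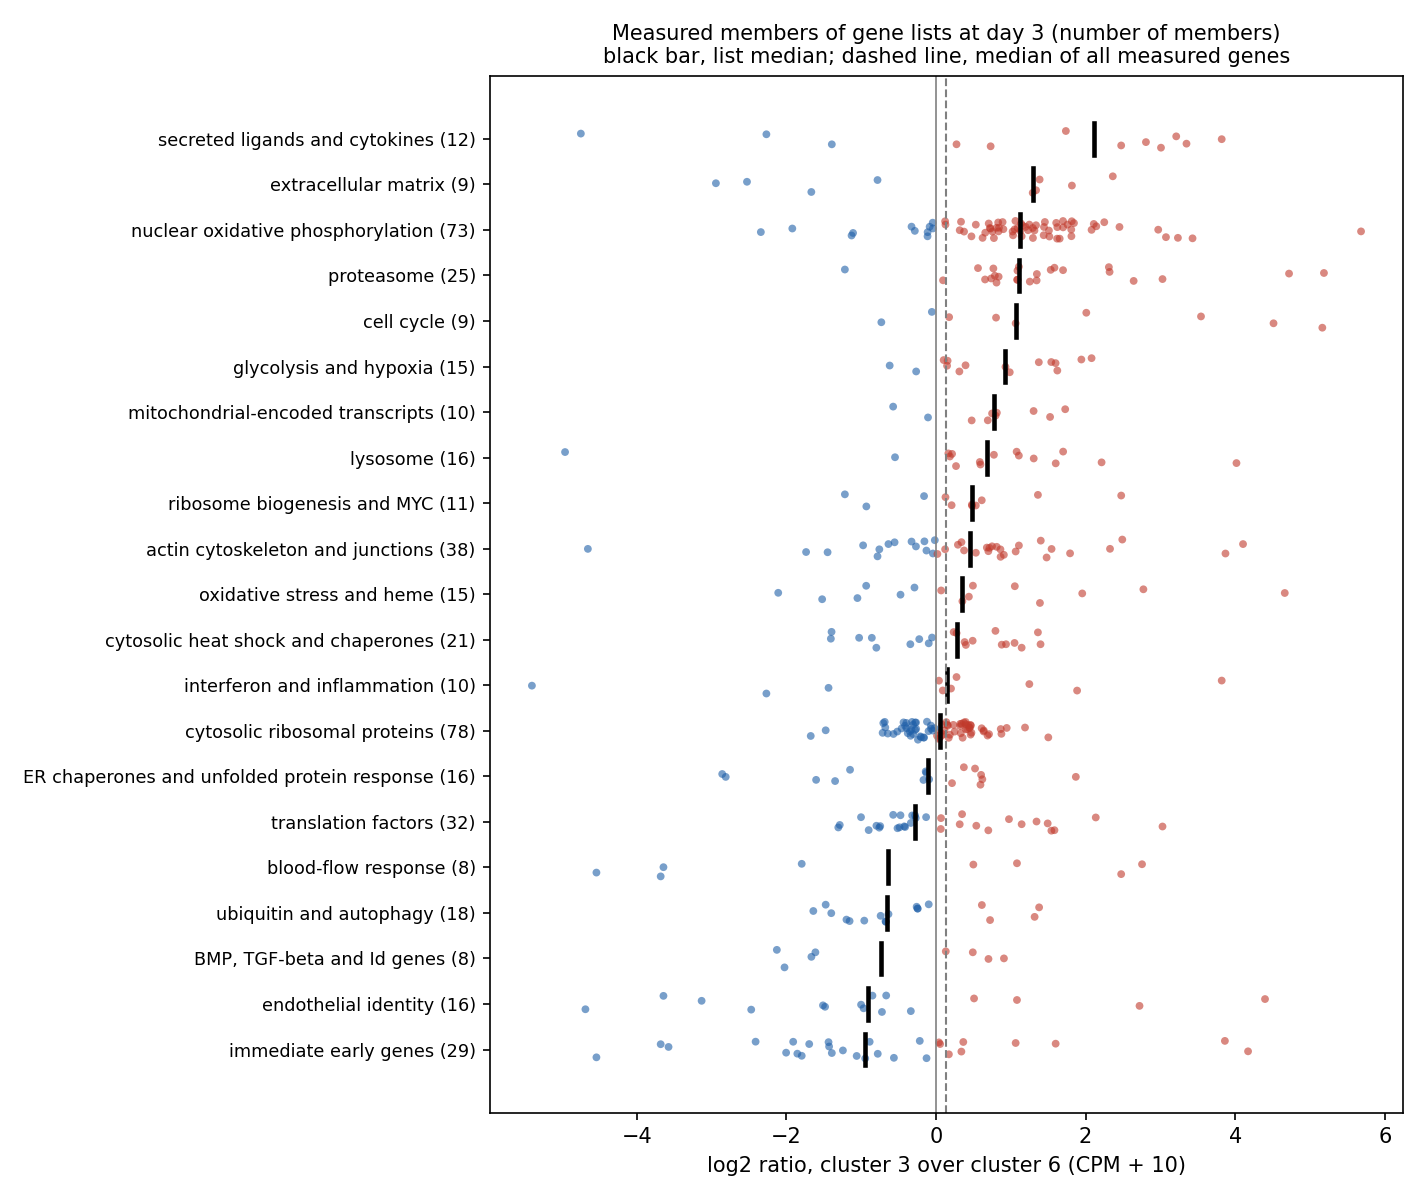
Log2 ratio of cluster 3 over cluster 6 for the measured members of lists with at least 8 of them (number in brackets), with the list median as a black bar and the median of all measured genes, 0.13, as a dashed line. Oxidative phosphorylation and proteasome members lie mostly right of the line, immediate early genes mostly left of it, and ribosomal proteins around it.

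Immediate early genes, which cells switch on within minutes of a stimulus and also during dissociation, were mostly lower in cluster 3. Of 29 measured 4 were 2-fold higher and 14 lower (23.4% and 18.4% of all genes), with a median of -0.95, or -0.87 without the richest cells. The list summed to 10472 CPM in cluster 3 and 23702 CPM in cluster 6. Its sum was 9989 and 6693 CPM in the endothelial-like clusters of day 0 and day 7. In the day 3 cells of clusters 0 and 2 it was 4984 CPM. fosab stood at 1017 CPM in cluster 3 and 3699 CPM in cluster 6, with a median of 2 UMIs per cell in cluster 3 and 14.5 in cluster 6. junba stood at 1022 and 3864 CPM. btg2, an antiproliferative gene, was found in 16.7% of cluster 3 cells and 94.1% of cluster 6 cells, at 62.9 and 859 CPM. cebpb and cebpd also lay more than 2-fold lower. dusp5, a phosphatase that switches off ERK, was an exception at 663 CPM in cluster 3 and 27.4 CPM in cluster 6, with 102 of its 137 cluster 3 UMIs in 1 cell.

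Because the study concerns amino acids and mTOR, the genes of that pathway were set out too, though few were deep enough. Of 66 listed mTORC1 genes 7 were measured, 0 of them 2-fold higher and 2 lower (23.4% and 18.4% of all genes). eif4ebp1, a repressor of translation that mTORC1 switches off, stood at 378 CPM in cluster 3 and 186 CPM in cluster 6, just short of 2-fold, while its relative eif4ebp3 stood at 121 and 432 CPM. Of 50 listed amino acid transporter genes 0 were measured. The 80 genes of cytosolic ribosomal proteins in the table took 380735 CPM in cluster 3 and 367936 CPM in cluster 6. Of the 78 measured, 2 were 2-fold higher and 2 lower (23.4% and 18.4% of all genes). Their median was 0.05, or -0.09 under median-of-ratios scaling. Of 32 translation factor genes 7 were 2-fold higher and 3 lower (23.4% and 18.4% of all genes), with a median of -0.28. The higher share was thus near that of all genes. Among 5 measured genes of amino acid synthesis and ATF4 targets 0 were 2-fold higher and 3 lower (23.4% and 18.4% of all genes).

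Of 9 measured matrix genes 5 were 2-fold higher and 3 lower in cluster 3 (23.4% and 18.4% of all genes). The list summed to 10143 CPM in cluster 3 and 10786 CPM in cluster 6. The collagen genes col1a1a, col1a1b, col1a2 and col5a1 were 2-fold higher, col1a1a at 257 CPM in cluster 3 and 65.7 CPM in cluster 6. Other collagen genes were below the minimum, such as col4a1 (7 UMIs in cluster 3 and 9 in cluster 6), col4a2 (0 and 5) and col6a2 (3 and 0). In the fibroblast-rich cluster 4 of day 7 the sum of fibroblast markers was 24783 CPM, against 949 CPM in cluster 3 and 690 CPM in cluster 6 at day 3. The elastic fibre gene efemp2b (29.0 CPM in cluster 3 and 290 CPM in cluster 6) and spock3 were lower. Of 38 cytoskeleton and junction genes 10 were 2-fold higher and 3 lower, where 23.4% and 18.4% of all genes were, so the higher share was near that of all genes. flna, the actin crosslinker filamin A, had 54 UMIs in 31 cells of cluster 3 and 7 in cluster 6.

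Of 9 measured cell cycle genes 5 were 2-fold higher in cluster 3 and 0 lower (23.4% and 18.4% of all genes), and without the richest cells 4 were 2-fold higher and 9 lay above 0. pcna, the DNA polymerase clamp, had 156 of its 174 cluster 3 UMIs in 1 cell, and stmn1a 63 of 72, and their log2 ratios without these cells were 1.41 and 2.44. rrm2, a subunit of the enzyme that makes deoxynucleotides, had 22 UMIs in 10 cluster 3 cells and 0 in cluster 6. cdk1 had 8 UMIs in 6 cluster 3 cells and 0 in cluster 6, and mki67 had 2 UMIs in 1 cluster 3 cell. Stress and lysosome genes were mixed. hmox1a, heme oxygenase, was higher at 470 CPM in cluster 3 and 60.2 CPM in cluster 6, the ferritin gene fth1a lower at 402 and 843 CPM. Of 16 lysosome genes 7 were 2-fold higher and 1 lower in all cells (23.4% and 18.4% of all genes), against 2 and 2 without the richest. cd63, a tetraspanin of late endosomes, stood at 4086 CPM in cluster 3 and 1341 CPM in cluster 6.

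Several defining genes of other cell types were absent or nearly so. The leukocyte gene ptprc and the epicardial genes tcf21, wt1a, wt1b and tbx18 had 0 UMIs in both clusters, and the macrophage genes mpeg1.1 and csf1ra had 1 UMI each, in cluster 3. The summed macrophage markers reached 983 CPM in cluster 3 and 350 CPM in cluster 6, and the ratios of grn1 and grn2 in that list rested largely on single cells. All 5 measured markers of the list lay above 0 and 3 were 2-fold higher in cluster 3 (54.9% and 23.4% of all genes). Among them lygl1 had 28 UMIs in 17 cluster 3 cells and 6 UMIs in 5 cluster 6 cells. Its log2 ratio was 1.76 in all cells and 1.64 without the richest. The epicardial list summed to 10254 CPM in cluster 3 and 12669 CPM in cluster 6, most of it keratins. krt18 stood at 5161 CPM in cluster 3 and 1762 CPM in cluster 6, krt8 at 2939 and 2900 CPM and krt94 at 1375 and 1390 CPM. krt15 stood at 237 and 6211 CPM and krt4 at 24.2 and 104 CPM. The list also holds aldh1a2, whose levels are given above with the retinoid genes. The neutrophil list summed to 1322 CPM in cluster 3 and 2288 CPM in cluster 6, nearly all of it srgn, while mpx and lyz had 0 UMIs in both.

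Levels of the named genes in the other libraries are given as description. In the endothelial-like clusters 0, 2, 3 and 6 of day 0 (166 cells), nppb stood at 33.4 CPM, lepb at 0, aplnra at 13.7, klf2a at 132 and vwf at 789 CPM. Cluster 3 at day 7 (22 cells) had nppb at 3177 and lepb at 97.2 CPM, against 4135 and 203 CPM in cluster 3 at day 3. 93 of the 294 day 7 nppb UMIs and 7 of the 9 lepb UMIs lay in 1 cell each. High levels were not confined to cluster 3. Genes of the natriuretic peptide system, nppb among them, summed to 4231 CPM in cluster 3 and 219 CPM in cluster 6 at day 3. Their sum was 1781 CPM in the 19 day 3 cells of clusters 0 and 2, and 899 CPM in the endothelial-like clusters of day 7. The day 7 library held 0 cells of cluster 6, and the day 0 library held 2. Those 2 cells had 72 vwf, 6 aplnra and 6 klf2a UMIs and 0 of nppb and lepb. txn stood at 2876 CPM in day 3 cluster 3 and 3473 CPM in the 19 day 3 cells of clusters 0 and 2, where 300 of 347 UMIs lay in 1 cell, and at 275 CPM in the day 0 endothelial-like clusters.

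Part of the cluster 6 genes were also abundant in cluster 1 of other days, the mural-like cells. cfd stood at 40311 CPM in day 3 cluster 6, and at 8602 and 17910 CPM in cluster 1 of day 0 and day 7. rbp4 stood at 4564 CPM in day 3 cluster 6 and at 1775 and 11306 CPM in cluster 1, mdkb at 389 CPM and at 1170 and 1948 CPM, and her4.1 at 1904 CPM and at 1855 and 401 CPM. her4.1 was found in 100% of day 3 cluster 6 cells but in 29.5% of cluster 1 cells at day 0, and 61 of its 85 UMIs in cluster 1 of day 7 lay in 1 cell. Other genes were low there: aplnra was at 3.32 and 18.9 CPM in cluster 1 of day 0 and day 7, klf2a at 53.2 and 89.6, vwf at 69.8 and 18.9, and cxcl14 at 36.6 and 28.3 CPM. In day 3 cluster 6, her4, cfd and rbp4 UMIs were found in all 34 cells and vwf UMIs in 32 of them. These genes were named for their high levels in cluster 6, so wide detection there is no separate result. A UMI need not mean expression, since cfd also had a UMI in 93.3% of day 3 cluster 3 cells. Whether single cluster 6 cells express both kinds of gene was not tested.

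**Figure D5:**
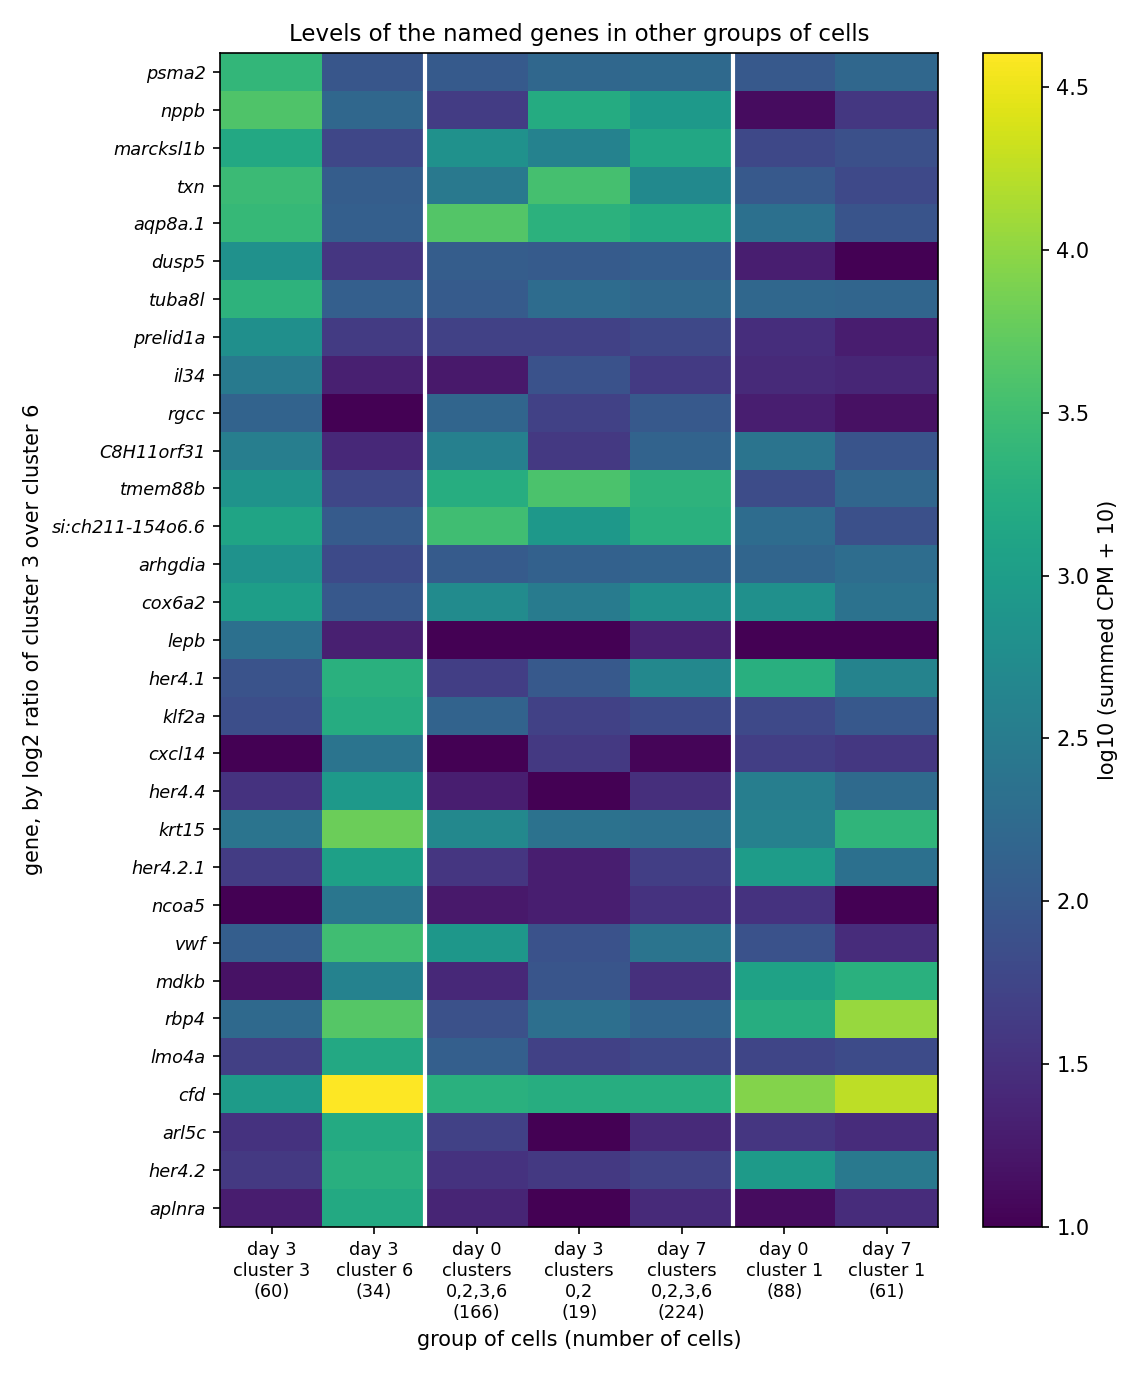
Level of the 15 highest and 15 lowest genes and lepb, as log10 of summed CPM plus 10, in day 3 cluster 3 and cluster 6, in the endothelial-like clusters of day 0, day 3 and day 7, and in cluster 1 of day 0 and day 7, with the number of cells in brackets. aplnra, klf2a and vwf stand out in day 3 cluster 6, in large part through single cells. These cells held 235 of 284 aplnra UMIs, 377 of 569 vwf UMIs and 165 klf2a UMIs. cfd, rbp4 and mdkb are high in cluster 1 of day 0 and day 7 as well. her4.1 is high in cluster 1 of day 0, and lower in that of day 7, where most of its UMIs lay in 1 cell.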

How the data were processed

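Per the submitters' processing notes, reads were processed with Cell Ranger with GRCz10 as genome build. Its version, the normalization tool and the clustering method are not stated in the labels or headers. The authors deposited a table of natural log values for 26320 genes in 754 cells and metadata that hold, per the file headers, UMI counts and detected gene counts per cell, the day and cluster numbers at 2 resolutions. At the coarser resolution cluster 6 alone forms 1 cluster of 36 cells over all days, and cluster 3 is part of a cluster of 470. Reversing the log and scaling each cell to its deposited UMI count, with 10000 as the authors' scale, gave values within 0.001 of a whole number for all 497895 values above 0. Recovered totals matched the metadata in 754 of 754 cells. These recovered counts were summed per cluster. No doublet caller was run and no cell was removed.

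Named genes were the 5 pair markers, the 15 highest and 15 lowest log2 ratios under the conditions given in the report, the top 3, bottom 3 and 3 most abundant measured members of each gene list, and members outside the rule by their UMIs. Other genes named (cebpd, mdka, psme2 and those of the closing section) were chosen after their values were seen. The members and lists were chosen with earlier results of these data known. The step that computes ratios was tested on simulated counts. No genome sequence was used here. The values of 1 gene are not reported here. Alternatives were pseudocounts of 1 and 50 CPM, minimums of 10 and 50 UMIs or none, thinning to 2000 UMIs, equal weight per cell, median-of-ratios scaling and leaving out rich or deep cells. Tools were Python 3.11.15, numpy 2.4.6, pandas 2.3.3, scipy 1.17.1 and matplotlib 3.10.9.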

Additional observations from a re-analysis of the deposited data

How the results depend on the processing

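No paired analysis was possible because both clusters come from 1 library, and no replicate could be left out. Leaving out the deepest day 3 cell changed nothing, since it lies in neither cluster. The counts of 294 higher and 232 lower genes became 497 and 391 with a minimum of 10 UMIs, 154 and 131 with 50, and 1149 and 1240 with none. Median-of-ratios scaling lowered the median log2 ratio of all genes by 0.13, with 257 genes higher and 255 lower. For aplnra the log2 ratio was -7.19 with a pseudocount of 1 CPM, -4.75 with 50 CPM and -3.87 without its richest cell. Without their richest cells vwf, klf2a and nppb had -3.15, -3.49 and 4.18. lepb had 4.70 after thinning and 4.42 without cells over 10000 UMIs, an alternative chosen after seeing the data. Among named genes past 2-fold in all cells, the direction turned without the richest cell for bnip3lb (0.36), tax1bp1b (-0.10), psma6a (1.91), uqcrb (0.66), atp5g1 (1.80), cd9b (-1.07), dpp7 (0.35), cox7c (0.95) and atp5e (1.52). It also turned for genes short of 2-fold, such as mycb (-0.93 in all cells and 0.51 without the richest), srgn (-0.81 and 0.48) and hmgb2b (-0.73 and 0.54). The log2 ratio of cox7c also turned after thinning (0.11), with equal weight per cell (0.0734) and without cells over 10000 UMIs (0.87), the last of which turned atp5g1 too (2.51). Over all alternatives 2141 values of the named genes' log2 ratios lay within their counting interval, whatever their sign, 234 lay outside it, and 13 further values of genes past 2-fold turned sign. The median of proteasome genes ran from 0.94 to 1.42, that of oxidative phosphorylation from 0.83 to 1.21 and that of immediate early genes from -1.32 to -0.51.

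Cells of 1 pool cannot show how hearts or fish vary. At median depths of 2880.5 and 4408 UMIs per cell, receptors, ligands and amino acid transporters were mostly below the minimum. For such genes taken 1 by 1, differences were not detectable at this depth.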

Other observations

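Beyond the named genes, 4 further genes for secreted proteins were rare or not found in cluster 3. They were chosen after their values were seen, and the list of secreted ligands as a whole had more members higher than lower in cluster 3. wnt11r, a Wnt ligand gene, had 0 UMIs in cluster 3 and 39 UMIs in 17 cells of cluster 6, at least 14.7-fold lower in cluster 3. frzb, a secreted Wnt antagonist gene, had 0 UMIs in cluster 3 and 27 in 13 cells of cluster 6, and inhbab, an activin subunit gene, 0 and 23 in 15 cells. pcolcea, which helps process procollagen, had 3 UMIs in cluster 3 and 46 UMIs in 23 cells of cluster 6. No cell held more than 7 UMIs of any of these 4 genes.

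In the other direction epo, the erythropoietin gene, had 20 UMIs in 12 of 60 cluster 3 cells and 1 UMI in 1 of 34 cluster 6 cells, a ratio of 17.7 with an interval of 2.83 to 733. No cell held more than 4 epo UMIs. crip2, a LIM domain gene, was found in 54 of 60 cluster 3 cells and 9 of 34 cluster 6 cells, at 775 and 76.6 CPM. psme2, a subunit of the proteasome activator, was found in 35.0% of cluster 3 cells and 8.82% of cluster 6 cells.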
